A study of Arabidopsis thaliana with 8 samples.

Results

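The late response of Arabidopsis root explants to shoot-inducing medium was set out gene by gene in hag1 and in Col. For each gene the log2 change from 2 days to 2 weeks on this medium was taken in each genotype, and the change in Col was subtracted from the change in hag1. Genes with at least 50 unique reads in at least 1 of the 4 libraries were kept, which left 13458 of the 25686 loci with reads in the series. A negative difference therefore marks a gene whose level at 2 weeks, relative to 2 days, was lower in hag1 than in Col.

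RNA was sequenced along shoot regeneration from roots, at 4 stages in each genotype. The mutant is labelled hag1, with no allele named in the sources used here, and the wild type is Columbia-0 (Col). The 4 libraries compared came from hag1 and Col root explants kept for 4 days on callus-inducing medium (CIM) and then for 2 weeks or for 2 days on shoot-inducing medium (SIM). Roots and explants taken after the 4 days on CIM gave the other 4 libraries. Each genotype and stage is 1 library, so no difference has a replicate check, no test was possible and no p-value is given. How many plants or explants went into a library is not stated in the sources used here. Intervals beside a difference are exact 95% counting intervals, and they cover counting error only. A gene is said below to have risen or fallen where its library ratio passed 2-fold.

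CIM is rich in auxin and turns cells of the root into callus with the character of a lateral root primordium. SIM is rich in cytokinin, under which shoot meristems form in that callus and the tissue greens. HAG1, also known as GCN5, is a histone acetyltransferase, an enzyme that adds acetyl groups to histone tails and works as a coactivator of transcription. Since whole explants were sequenced, fewer cells of a type and less RNA per cell cannot be told apart in any of the values.

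Unique reads per library, in units of 1e+06 reads, were between 6.96 and 7.40 in the 4 libraries and up to 7.54 in the series, and 3 reads corresponded to 0.398 to 0.431 counts per 1e+06 reads (CPM). HAG1 itself had 21 reads in roots, 8 on CIM, 16 after 2 days and 13 after 2 weeks on SIM in hag1, against 171, 204, 340 and 156 reads at the same stages in Col, so its reads followed the labels at every stage. Its late change differed little between the genotypes (0.66, counting interval -0.57 to 1.83). The 10 genes with the most reads held 3.0 to 7.66% of a library, with the highest share in hag1 after 2 weeks, where PRXCB, a cell wall peroxidase, alone took 177267 reads. The 9 housekeeping genes with enough reads had a median difference of -0.16, and none of them passed 2-fold, against 16.5% of all 13458 genes. Of 12 stomatal lineage genes none reached 50 reads, and none had more than 6 reads in any of the 4 libraries. Markers of roots, phloem and chloroplasts were read in all 4 libraries, but not every such marker was. The chloroplast gene LHCA1 had no unique read in any of the 8 libraries. That need not mean absence of its RNA, since reads shared by several models may be missing from unique counts.

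The late response was shared in part and smaller in hag1. Over the 13458 genes the 2 changes, which have no library in common, correlated with Pearson's r of 0.77 and Spearman's rho of 0.72, given as a description across genes. The changes had an SD of 1.17 in hag1 and 1.44 in Col on the log2 scale. The median difference was 0.02 with quartiles of -0.36 and 0.34, and 63.2% of the genes lay within 0.5 of 0. Differences of at least 4-fold were found at 736 genes (5.47%). They were unevenly split, with 544 genes lower in hag1 (4.04%) and 192 higher (1.43%). At 2-fold the counts were 1396 genes lower (10.4%) and 831 higher (6.17%). These shares, and those at 4-fold, are the background for the counts given for each gene list below.

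**Figure D1:**
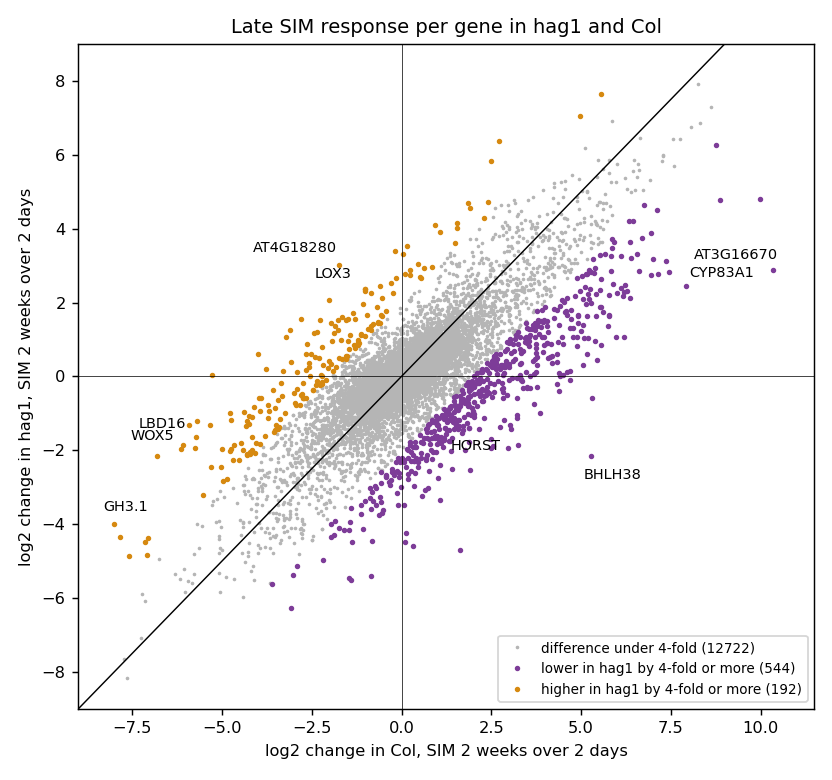
Each point is 1 of 13458 genes, placed by its log2 change from 2 days to 2 weeks on SIM in Col (x axis) and in hag1 (y axis), 1 library per genotype and stage. The line marks equal changes. The 544 genes with a 4-fold lower response in hag1 lie under it and the 192 with a higher response above it.

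Genes that rose at least 4-fold numbered 606 in hag1 (4.50%) and 967 in Col (7.19%), with 479 in both. The 967 genes that rose in Col had a median change of 1.99 in hag1 and 3.19 in Col. Choosing by 1 genotype favours that genotype, so the reverse choice is given beside it. The 606 genes that rose in hag1 had a median change of 2.94 in hag1 and 3.34 in Col, so even these did not rise more in hag1 at the median. Genes that fell at least 4-fold numbered 560 in hag1 (4.16%) and 653 in Col (4.85%), with 350 in both. The 653 genes that fell in Col had a median of -2.1 in hag1 and -2.81 in Col, and the 560 that fell in hag1 had -2.77 in hag1 and -2.46 in Col.

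Most of the 544 genes with a lower response in hag1 had risen in Col. In 382 of them the larger of the 2 changes was a rise in Col, and in 162 it was a fall in hag1. In 390 the larger ratio between the genotypes stood at 2 weeks, and in 310 the genotypes had been within 2-fold at 2 days. Their median log2 ratio of hag1 to Col was -2.07 at 2 weeks and 0.71 at 2 days. The 192 genes with a higher response in hag1 stood mostly apart at the earlier stage. In 139 the larger change was a fall in Col, in 151 the larger ratio stood at 2 days, and in 111 the genotypes were within 2-fold at 2 weeks. Their median log2 ratio of hag1 to Col was 0.50 at 2 weeks and -2.2 at 2 days.

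**Figure D2:**
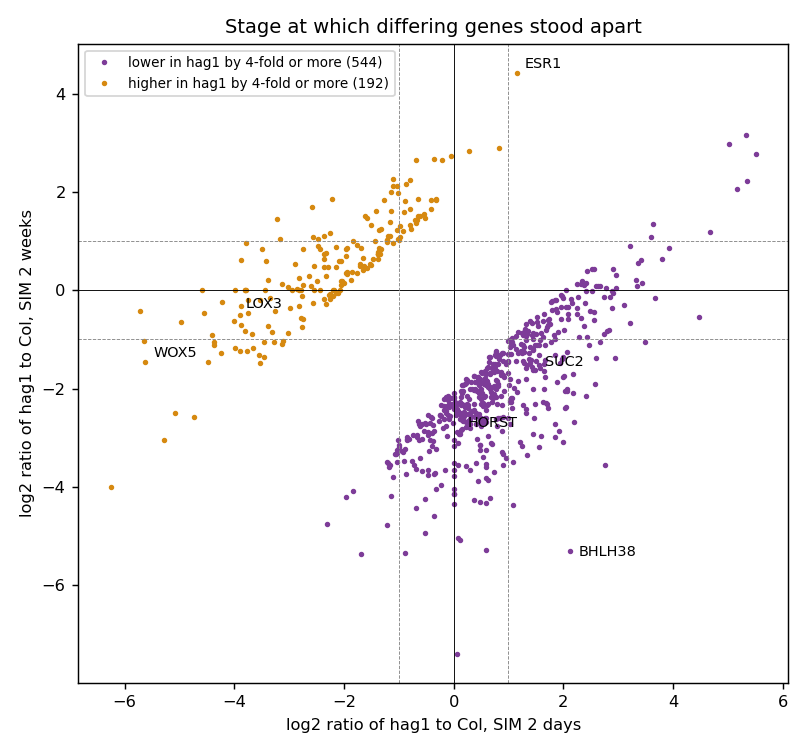
The log2 ratio of hag1 to Col after 2 weeks on SIM (y axis) is plotted against the ratio after 2 days (x axis) for the 736 genes whose late responses differed at least 4-fold, with dashed lines at 2-fold. The 544 genes with a lower response in hag1 spread downwards at 2 weeks (median -2.07), and the 192 with a higher response spread to the left at 2 days (median -2.2).

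The counting interval excluded a difference of 0 for 491 of the 544 lower and 170 of the 192 higher genes, and a difference of 2-fold for 451 and 142 of them. In 32 lower and 13 higher genes a library held no read, and for these the reads are given below in place of a fold. The interval is open on 1 side or both for such genes, and it includes 0 for BGAL7, MRN1, SWEET12 and PR1. At the read threshold itself, the 61 genes whose highest library held exactly 50 reads had a median difference of 0.06 (range -3.57 to 1.26). The 76 genes whose highest library held 49 reads had -0.11 (range -4.76 to 2.42). These medians do not describe genes further below the threshold. With a minimum of 10 reads, 986 of 18577 genes were at least 4-fold lower and 345 higher, against 544 and 192 of 13458.

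The 4 libraries of roots and CIM explants, which the choice of these genes did not use, show where the 2 sets had been expressed before. Of the genes with a lower late response in hag1, 76.5% had at least 50 reads in a root library and 59.0% in a CIM library, against 86.9% and 89.6% of all 13458 genes, and in Col their median level was 1.68 log2 units higher in roots than on CIM. Of those with a higher response, 66.1% passed in roots and 87.0% on CIM, and the same median was -0.59. Over all 13458 genes it was -0.06. The lower set was thus low on CIM in Col (median log2 CPM 2.76, against 4.85 for all genes) and nearer to the rest in Col roots (4.45, against 4.88). In roots both sets were slightly lower in hag1, with median log2 ratios of hag1 to Col of -0.49 and -0.42 over members with at least 50 reads in a root library. On CIM, over members with at least 50 reads in a CIM library, the median ratio was 0.45 for the lower set and -0.06 for the higher set. An earlier step without shared libraries, from roots to CIM, gave differences of at least 4-fold at 5.64% of 14169 genes, split evenly into 400 lower (2.82%) and 399 higher (2.82%) in hag1. The step from CIM to 2 days on SIM shares the 2-day libraries with the late step, and there 3.44% of 13104 genes passed, 287 lower (2.19%) and 164 higher (1.25%).

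Several of the largest differences were at genes with few reads at 2 days that came up at 2 weeks in Col. AT3G16670, which encodes a protein of the pollen Ole e 1 allergen and extensin family, had 19 reads at 2 weeks and 1 read at 2 days in hag1, against 3533 and 1 in Col, a difference of -7.46 (counting interval -13.80 to -1.35). AT3G05730, a defensin-like gene, had 129 reads at 2 weeks and 3 at 2 days in hag1, against 4463 and 3 in Col. Both genes were at 1 to 4 reads in roots and on CIM in either genotype, so the 2-week libraries were the only ones of the 8 with more than 4 reads of them. BHLH38, a transcription factor of the iron deficiency response, went in opposite directions: it had 4 reads at 2 weeks and 26 at 2 days in hag1, against 231 and 5 in Col, a difference of -7.44 (-10.83 to -6.22). It was the only gene that fell at least 4-fold in hag1 and rose at least 4-fold in Col. BGAL7, a beta-galactosidase, had 4 reads at 2 weeks and 1 at 2 days in hag1, against 117 and 0 in Col. AT5G64110, a peroxidase, differed at the other stage, with 104 reads at 2 weeks and 81 at 2 days in hag1, against 152 and 2 in Col. AT4G24275, found in a screen for stress-responsive genes, separated by a fall in hag1, with 6 reads at 2 weeks and 198 at 2 days in hag1, against 49 and 47 in Col (-4.89, -6.87 to -3.93).

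Glucosinolates are sulfur-containing defence compounds of the cabbage family, made from methionine (aliphatic) or tryptophan (indole). The aliphatic branch came up after 2 weeks in Col and far less in hag1. Of 17 genes in the list 11 had 50 reads; 5 differed at least 2-fold downwards and 1 upwards, and 4 and 1 passed 4-fold, with a median of -0.95. MAM1, which elongates methionine, had 39 reads at 2 weeks and 3 at 2 days in hag1, against 987 and 5 in Col (-4.24, -6.51 to -1.36). BCAT4, the aminotransferase of that elongation, had 33 and 2 reads in hag1, against 437 and 4 in Col, with an interval of -5.76 to 0.62 that includes 0. CYP79F2, which makes the aldoxime from elongated methionine, had 6 and 2 reads in hag1, against 260 and 2 in Col, and CYP83A1, which acts on the aldoxime next, had 39 and 6 reads in hag1, against 851 and 2 in Col (-5.47, -9.55 to -3.65). In all 4 genes both genotypes were at 6 reads or fewer at 2 days, and hag1 was far below Col at 2 weeks. CYP79F2 has a close copy, CYP79F1, with 0 reads at 2 weeks and 1 at 2 days in hag1, against 36 and 1 in Col, and reads of the pair may be split between them. MYB28, the regulator of this branch, was under the threshold, with 0 and 1 reads in hag1, against 32 and 0 in Col. The indole branch moved differently. CYP79B3, which starts it from tryptophan, had 133 reads at 2 weeks and 64 at 2 days in hag1, against 332 and 870 in Col (2.24), while its partner CYP79B2 had 1861 and 2561 reads in hag1, against 2238 and 2086 in Col (-0.74).

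Genes for uptake of iron, nitrate, ammonium, phosphate and water had the same form in part. Of 20 genes, with the nitrate reductases counted among them, 12 had 50 reads, 7 differed at least 2-fold downwards and none upwards, 5 passed 4-fold downwards, and the median was -1.33, with median changes of 0.05 in hag1 and 2.68 in Col. NAS1, which makes the metal chelator nicotianamine, had 1 read at 2 weeks and 1 at 2 days in hag1, against 115 and 4 in Col, with an interval of -11.30 to 1.59 that includes 0. The xylem-loading nitrate transporter NRT1.5 had 24 and 9 reads in hag1, against 210 and 7 in Col (-3.46, -5.45 to -1.92), and the phosphate transporter PHT1;1 had 15 and 11 reads in hag1, against 77 and 5 in Col (-3.25, -5.72 to -1.76). For NAS1, NRT1.5 and PHT1;1 the levels at 2 weeks were small beside those of roots, where NRT1.5 had 3016 reads in hag1 and 14135 in Col. In Col NRT1.5 had 15 reads on CIM, 7 at 2 days and 210 at 2 weeks, and the source of these reads was not tested. The iron transporter IRT1 and the reductase FRO2 stayed at 5 reads or fewer in all 4 libraries.

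The promoters of BHLH38 and CYP83A1 are shown because each holds a G-box, the core site of bHLH and bZIP factors. The sequences are the 250 bases before the start in the RefSeq annotation of TAIR10.1, on the gene's strand; capitals mark the G-box CACGTG and the TATA box letters TATAAA, on either strand. BHLH38 lies at chr3:21085246-21085495 (minus strand) and CYP83A1 at chr4:7992430-7992679 (minus strand).
BHLH38: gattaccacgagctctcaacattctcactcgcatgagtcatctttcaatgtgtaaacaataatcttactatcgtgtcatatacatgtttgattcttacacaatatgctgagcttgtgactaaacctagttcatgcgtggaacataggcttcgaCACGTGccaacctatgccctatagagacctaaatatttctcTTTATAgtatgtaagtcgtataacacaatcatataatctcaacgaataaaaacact
CYP83A1: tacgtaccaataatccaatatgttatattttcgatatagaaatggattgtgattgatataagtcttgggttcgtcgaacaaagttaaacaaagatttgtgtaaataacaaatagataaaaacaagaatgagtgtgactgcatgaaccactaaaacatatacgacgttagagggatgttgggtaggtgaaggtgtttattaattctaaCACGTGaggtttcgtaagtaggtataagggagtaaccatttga
The letters CACGTG occurred in 7.92% of all 25462 promoters (windows from 250 bases before to 50 after the start), in 5.15% of the 544 genes with a lower response in hag1 and in 8.90% of those with a higher one, so the motif was not common among the differing genes as a whole. TATAAA occurred in 51.2% of all promoters, in 63.2% of the lower set and in 60.2% of the higher set.

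Triterpene genes of the root, most of which lie in 2 metabolic gene clusters named after thalianol and marneral, showed the lowest median of the gene lists. Of 10 genes 7 had 50 reads, 6 of them differed at least 4-fold downwards and none upwards, and the median was -3.08, with median changes of -0.12 in hag1 and 2.51 in Col. CYP71A16, which oxidises marneral, had 50 reads at 2 weeks and 91 at 2 days in hag1, against 675 and 61 in Col (-4.44, -5.17 to -3.85). The marneral synthase gene MRN1 beside it had 5 and 0 reads in hag1, against 282 and 5 in Col. In roots MRN1 already stood apart, with 111 reads in hag1 and 3480 in Col. THAS1, the thalianol synthase, had 73 and 126 reads in hag1, against 265 and 96 in Col (-2.4), and THAD, which desaturates thalianol, had 1349 and 1549 reads in hag1, against 5724 and 1754 in Col (-2.09). At 2 weeks the scaled level of all 7 genes was lower in hag1, though only slightly for PEN1, the arabidiol synthase gene, with 70 and 58 reads in hag1, against 80 and 38 in Col (-0.95).

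Endodermal barrier genes fell in hag1 and rose in Col at the list median, but several with the largest differences hardly changed in Col. The endodermis seals the root with the lignin ring of the Casparian strip and with suberin, a polyester of fatty acids and phenolics. Of 18 genes 14 had 50 reads, 12 differed at least 2-fold downwards and none upwards, and 6 passed 4-fold. The median was -1.83, with median changes of -1.45 in hag1 and 1.02 in Col. The 6 were 5 suberin synthesis genes and the endodermal factor gene MYB93. HORST, a fatty acid hydroxylase of suberin synthesis, had 344 reads at 2 weeks and 955 at 2 days in hag1, against 1942 and 1009 in Col (-2.59, -2.81 to -2.39). Its relative RALPH had 102 and 532 reads in hag1, against 596 and 560 in Col (-2.63, -3.02 to -2.30), and GPAT5, an acyltransferase, had 60 and 328 reads in hag1, against 340 and 296 in Col (-2.79, -3.31 to -2.36). MYB93 had 61 and 226 reads in hag1, against 313 and 255 in Col. In each of these the genotypes were close at 2 days and apart at 2 weeks. GPAT5 and RALPH changed by -2.33 and -2.28 in hag1 and by only 0.46 and 0.35 in Col. HORST changed by -1.38 in hag1 and 1.21 in Col. The Casparian strip genes CASP1 and CASP2 differed less, by -0.78 and -1.14, and were lower in hag1 at both stages: CASP1 had 18 and 11 reads in hag1, against 203 and 86 in Col. Summed over the 14 genes, reads were 2923 at 2 weeks and 4863 at 2 days in hag1, against 8547 and 5479 in Col.

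Root hair genes followed in weaker form, with 7 of 15 at 50 reads, 6 of them at least 2-fold lower and 1 of those 4-fold, and a median of -1.37. COBL9, a wall protein of growing hairs, had 14 reads at 2 weeks and 17 at 2 days in hag1, against 75 and 19 in Col (-2.29, -3.82 to -1.06). RHD6, a bHLH factor that starts hair formation, had 68 and 124 reads in hag1, against 103 and 62 in Col (-1.74). Summed reads of the 7 genes were 437 and 426 in hag1, against 1054 and 447 in Col.

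Of 14 phloem genes 10 had 50 reads, 7 stayed within 2-fold and 3 were at least 4-fold lower (list median -0.51). SUC2, the sucrose carrier that loads the phloem, had 1177 reads at 2 weeks and 2403 at 2 days in hag1, against 3194 and 957 in Col (-2.95, -3.10 to -2.80). Here hag1 was above Col at 2 days and below it at 2 weeks. PP2-A1, a phloem lectin, had 127 and 166 reads in hag1, against 782 and 67 in Col (-4.06, -4.63 to -3.60), with the same crossing. The sugar exporter SWEET12 had 7 and 1 reads in hag1, against 101 and 0 in Col, while its relative SWEET11 had 150 and 1 reads in hag1, against 417 and 3 in Col (-0.83), and the sucrose carrier SUC4 differed by 0.53. The sieve element gene SEOR1 differed by -0.37 and the phloem regulator OPS by 0.31. Among xylem and secondary wall genes 2 of 8 were at least 2-fold lower and 1 higher, against 10.4% and 6.17% of all 13458 genes. IRX1 and IRX5, which encode cellulose synthases of secondary walls, were the 2 lower ones (-1.83 and -1.41), and ACL5, a thermospermine synthase, had 3 and 38 reads in hag1, against 28 and 748 in Col, with an interval of -1.53 to 2.69 that includes 0.

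**Figure D3:**
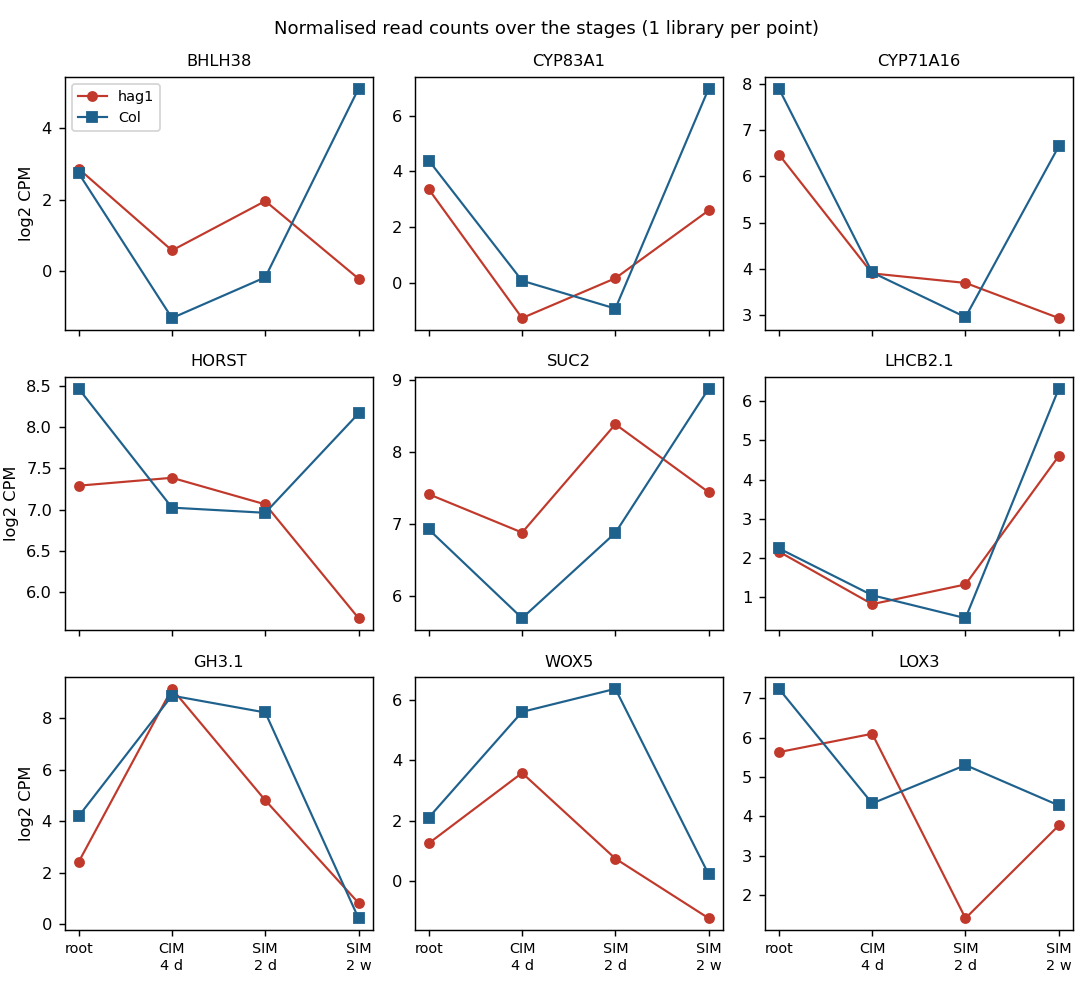
Log2 CPM (TMM scaled, prior count 2) of 9 genes over the 4 stages in hag1 (red circles) and Col (blue squares), 1 library per point. BHLH38, CYP83A1, CYP71A16, HORST, SUC2 and LHCB2.1 ended higher in Col at 2 weeks, while GH3.1, WOX5 and LOX3 were lower in hag1 at 2 days.

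Chloroplast genes rose in both genotypes, at the median by less in hag1. The chlorophyll-binding antenna proteins (LHC) collect light for the photosystems, and their genes follow chloroplast development. Of 32 antenna and photosystem genes 28 had 50 reads, with median changes of 3.55 in hag1 and 4.45 in Col. The median difference was -0.92, 14 genes differed at least 2-fold downwards and 1 upwards, and 3 passed 4-fold downwards. Summed reads were 15988 at 2 weeks and 1278 at 2 days in hag1, against 26364 and 1379 in Col, so the genotypes were close at 2 days. LHCB2.1, an antenna protein of photosystem II, had 162 and 16 reads in hag1, against 537 and 9 in Col (-2.58, -4.12 to -1.44). LHCB1.2 had 48 and 41 reads in hag1, against 231 and 38 in Col (-2.50), but LHCB1.1, LHCB1.2 and LHCB1.3 are near-identical copies and their unique reads are uncertain. PSBO2, of the oxygen-evolving complex, had 966 and 148 reads in hag1, against 1148 and 36 in Col (-2.4, -3.05 to -1.92), which differed at 2 days. Its relative PSBO1 had 1979 and 70 reads in hag1, against 2666 and 107 in Col (-0.01). The single gene past 2-fold upwards was LHCB4.1 (1.16), with 815 and 39 reads in hag1, against 1164 and 146 in Col. In the Calvin cycle and photorespiration list 4 of 11 were at least 2-fold lower and none higher (median -0.74). GAPA, a glyceraldehyde phosphate dehydrogenase of chloroplasts, had 1233 and 49 reads in hag1, against 1594 and 35 in Col (-1.0, -1.72 to -0.37). Of 10 greening regulators and chlorophyll synthesis genes 4 were at least 2-fold lower (median -0.70). CGA1, a cytokinin-induced GATA factor that promotes chloroplast development, had 21 and 0 reads in hag1, against 240 and 5 in Col, with an interval open upwards that includes 0, and GUN4, which assists chlorophyll synthesis, had 107 and 3 reads in hag1, against 211 and 3 in Col, with an interval of -4.08 to 1.77 that includes 0.

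GATA factors bind the I-box letters GATAAG, and the promoter of LHCB2.1 is shown as an antenna promoter that holds them. It lies at chr2:1824481-1824730 (minus strand, TAIR10.1), and capitals mark GATAAG.
LHCB2.1: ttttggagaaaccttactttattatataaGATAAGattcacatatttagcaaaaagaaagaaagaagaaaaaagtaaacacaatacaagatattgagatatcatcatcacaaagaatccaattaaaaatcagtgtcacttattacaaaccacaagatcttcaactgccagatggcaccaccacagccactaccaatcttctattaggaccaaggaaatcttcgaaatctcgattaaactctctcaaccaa
GATAAG was found in 12 of the 28 antenna and photosystem promoters (42.9%), against 14.7% of all promoters, and CACGTG in 10 of them (35.7%), against 7.92% of all. These shares describe the family and not its difference between genotypes, since the 544 lower genes held GATAAG in 14.5%.

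Of 20 flavonoid and anthocyanin genes 9 had 50 reads, and 3 of these were at least 2-fold and none 4-fold lower (median -0.78). Among the 11 under the threshold the anthocyanin gene DFR had 0 and 0 reads in hag1, against 21 and 0 in Col. PAL1, the first enzyme of phenylpropanoid synthesis, had 10668 reads at 2 weeks and 12731 at 2 days in hag1, against 9112 and 4000 in Col (-1.62, -1.69 to -1.56), so it was higher in hag1 at 2 days and nearly level at 2 weeks. TT4, chalcone synthase, had 9248 and 14296 reads in hag1, against 4069 and 5378 in Col (-0.41), higher in hag1 at both stages. Senescence genes differed in 6 of 9 by at least 2-fold downwards, 2 of them 4-fold, with a median of -1.20. RNS1, a ribonuclease induced in senescing and phosphate-starved tissue, had 696 and 205 reads in hag1, against 700 and 42 in Col (-2.42, -3.01 to -1.96), and SAG29, a SWEET sugar transporter, had 353 and 37 reads in hag1, against 702 and 10 in Col (-2.84, -4.25 to -2.0). Both were higher in hag1 at 2 days.

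The higher responses in hag1 came mainly from genes that were high in Col at 2 days and lost there by 2 weeks. Some genes of the root stem cell list, part of the programme that CIM callus carries, were among them. Of 20 genes 12 had 50 reads, 6 differed at least 2-fold upwards and 1 downwards, and 3 passed 4-fold upwards. The 3 were WOX5 and the lateral root factors LBD16 and LBD18, while 5 genes, PLT1 and PLT2 among them, stayed within 2-fold. PLT3, counted among the 6, is the same gene as AIL6 in the leaf list. The median was 1.06, with median changes of -1.81 in hag1 and -2.82 in Col. WOX5, the homeobox factor of the root quiescent centre, had 1 read at 2 weeks and 10 at 2 days in hag1, against 6 and 670 in Col. The counting interval of its difference ran from -2.36 to 6.54, because 1 read at 2 weeks leaves the change in hag1 loosely bounded. LBD16, a factor that starts lateral roots and callus under auxin, had 23 and 81 reads in hag1, against 5 and 437 in Col (4.08, 2.96 to 6.23). LBD18, of the same family, had 2 and 81 reads in hag1, against 0 and 519 in Col. SCR, a GRAS factor of the quiescent centre and endodermis, had 124 and 169 reads in hag1, against 249 and 980 in Col (1.35, 0.94 to 1.75). PLT1 and PLT2, the PLETHORA factors of the root stem cell niche, were lost about equally, with 4 and 352 reads of PLT1 in hag1, against 24 and 1042 in Col (-0.76, -3.20 to 0.36). In each of these genes the hag1 level was already below Col at 2 days, and summed reads over the 12 genes were 799 and 2075 in hag1, against 958 and 7242 in Col.

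Auxin response genes behaved alike. GH3 enzymes couple auxin to amino acids, Aux/IAA proteins repress auxin response factors, and both families are induced by auxin. Of 21 genes 13 had 50 reads, 6 differed at least 2-fold upwards and none downwards, 3 passed 4-fold, and the median was 0.96, with median changes of -2.83 in hag1 and -3.91 in Col. GH3.1 had 10 reads at 2 weeks and 199 at 2 days in hag1, against 6 and 2433 in Col (4.01, 2.54 to 5.92). On CIM, with 4170 reads in hag1 and 3671 in Col, the genotypes had been close. GH3.3 had 60 and 1477 reads in hag1, against 39 and 7005 in Col (2.66, 2.07 to 3.31), also after near-equal reads on CIM (25142 in hag1 and 23516 in Col). IAA30 had 4 and 176 reads in hag1, against 1 and 468 in Col (2.25), with an interval of -0.13 to 8.85 that includes 0. In these 3 genes both genotypes were at low levels at 2 weeks, and hag1 was the lower at 2 days. GH3.6 stood otherwise, with 1137 and 6804 reads in hag1, against 480 and 6087 in Col (0.9). GH3.12 (1.58) belongs to this family but acts in salicylate synthesis.

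The letters TGTCTC are the auxin response element to which auxin response factors bind, and the promoter of GH3.3 is shown because it holds them. It lies at chr2:9866563-9866812 (minus strand, TAIR10.1), and capitals mark TGTCTC and TATAAA.
GH3.3: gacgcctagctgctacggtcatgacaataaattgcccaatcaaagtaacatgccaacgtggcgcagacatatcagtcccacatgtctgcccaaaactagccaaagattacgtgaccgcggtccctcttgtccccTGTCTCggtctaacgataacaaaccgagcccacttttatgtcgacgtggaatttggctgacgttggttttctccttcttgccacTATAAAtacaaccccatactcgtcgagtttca
TGTCTC, on either strand, was in 7 of the 13 promoters of the auxin list (53.8%), against 14.1% of all promoters and 13.5% of those with 50 reads. It was in 45 of 191 promoters (23.6%) of the genes with a higher late response in hag1 and in 13.4% of those with a lower one. This motif was searched for after the values had been seen.

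Jasmonate genes had a list median of 1.49, the highest among lists with at least 3 genes at 50 reads. Jasmonate is the wound hormone, made in chloroplasts from fatty acids by lipoxygenases (LOX), AOS and AOC; JAZ proteins repress its factor MYC2 and are themselves induced by it. Of 19 genes 12 had 50 reads, 8 differed at least 2-fold upwards and 2 downwards, and 4 and 2 passed 4-fold. Median changes were 0.88 in hag1 and -1.10 in Col, and members varied: LOX4 was lower at 2 weeks than at 2 days in both genotypes, while LOX2 and VSP2 were higher in both. LOX3 had 90 reads at 2 weeks and 17 at 2 days in hag1, against 129 and 318 in Col (3.38, 2.69 to 4.42). JAZ10 had 9 and 2 reads in hag1, against 9 and 61 in Col (3.81, 2.1 to 8.09), and JAZ5 had 107 and 33 reads in hag1, against 90 and 277 in Col (3.06). MYC2 had 540 and 442 reads in hag1, against 696 and 1885 in Col (1.54). For all of these the genotypes were close at 2 weeks and apart at 2 days, when hag1 was the lower. On CIM the order had been the other way for LOX3, with 501 reads in hag1 and 154 in Col. The 2 genes in the other direction were LOX2, the lipoxygenase of leaves, with 40 and 7 reads in hag1, against 529 and 6 in Col (-3.97, -6.03 to -2.24), and AOC2, with 6 and 7 reads in hag1, against 53 and 6 in Col (-3.10).

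**Figure D4:**
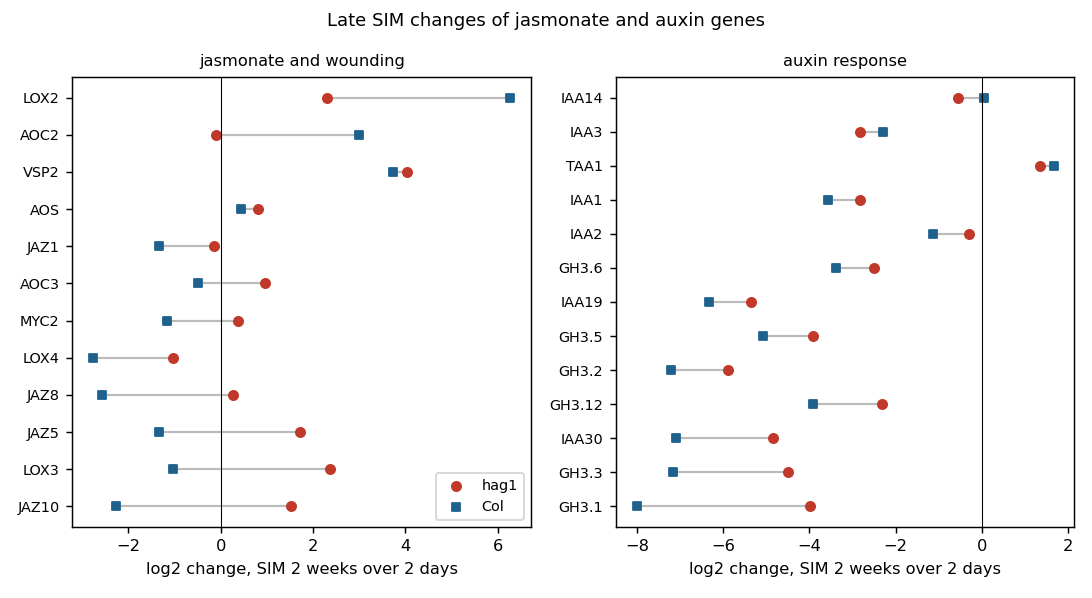
Log2 change from 2 days to 2 weeks on SIM in hag1 (red circles) and Col (blue squares) for the 12 jasmonate and 13 auxin response genes with 50 reads, 1 library per genotype and stage. LOX3, JAZ5 and JAZ10 lie right of 0 in hag1 and left of it in Col, and the GH3 genes lie left of 0 in both, further left in Col.

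Several genes with the highest differences encode stress-related factors. BHLH92, a bHLH factor of the osmotic stress response, had 1 read at 2 weeks and 1 at 2 days in hag1, against 2 and 177 in Col (5.29), with an interval of -0.59 to 12.47 that includes 0. RRTF1, an ERF factor induced by redox stress, had 6 and 35 reads in hag1, against 1 and 387 in Col (4.67, 2.73 to 11.37). MYB2, of the drought response, had 23 and 7 reads in hag1, against 12 and 113 in Col (4.34, 3.13 to 6.48), and HSFA6B, a heat shock factor, had 2 and 13 reads in hag1, against 0 and 150 in Col. AT4G18280, annotated as related to glycine-rich wall proteins, had 150 and 18 reads in hag1, against 76 and 309 in Col (4.74, 4.08 to 5.77). All 5 were lower in hag1 at 2 days. On CIM they were mixed, with log2 ratios of hag1 to Col of 2.75 for BHLH92, 1.53 for RRTF1 and 0.45 for AT4G18280. MYB2 and HSFA6B had ratios of -1.01 and -1.88 there. Among 16 salicylate and defence genes 6 were at least 2-fold higher and 2 lower (median 0.66), against 6.17% and 10.4% of all 13458 genes. WRKY53, a factor of defence and senescence, had 311 and 74 reads in hag1, against 206 and 364 in Col (2.68, 2.26 to 3.17), and the salicylate marker PR1 had 4 and 0 reads in hag1, against 65 and 0 in Col.

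Shoot meristem regulators were read thinly for the most part. Of 18 meristem and boundary genes 9 had 50 reads, 3 differed at least 2-fold upwards and none downwards, and the median was 0.41. The ERF factor gene RAP2.6L had the most reads of the list, 10217 and 6485 in hag1, against 9049 and 4071 in Col (-0.68), and the homeobox gene KNAT1 differed by -0.27. ESR1, an ERF factor that promotes shoot regeneration, had 60 reads at 2 weeks and 114 at 2 days in hag1, against 1 and 57 in Col (3.28, 2.1 to 10.07). It was higher in hag1 at both stages, and its difference falls under 4-fold with a prior count of 8 (1.92). CUC2, a boundary NAC factor, had 121 and 219 reads in hag1, against 52 and 144 in Col (0.41, -0.15 to 1.02). The meristem receptor kinase gene CLV1 had 69 and 32 reads in hag1, against 187 and 51 in Col (-0.95, -1.74 to -0.14). WUS, the organiser of the shoot meristem, was under the threshold, with 13 and 9 reads in hag1, against 16 and 1 in Col. STM, the homeobox gene of meristem cells, had 15 and 1 reads in hag1, against 29 and 1 in Col, CUC1 had 41 and 11 reads in hag1, against 21 and 35 in Col, and CLV3 had none in any of the 4 libraries.

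Leaf and epidermis genes were mixed too. Of 11 leaf genes 2 were at least 4-fold lower, NGA3, a B3 factor of leaf margin growth, with 13 and 9 reads in hag1, against 89 and 4 in Col (-3.61, -6.42 to -2.0), and KAN2, a factor of the lower leaf side, with 11 and 65 reads in hag1, against 128 and 158 in Col (-2.26, -3.57 to -1.43). NGA1 was low in hag1 at both stages, with 6 and 5 reads in hag1, against 107 and 80 in Col (-0.41, -2.37 to 1.77). So few reads in hag1 leave the difference of its late changes loosely bounded. Of 8 epidermal genes 3 were at least 2-fold lower and 2 higher, against 10.4% and 6.17% of all 13458 genes. PDF1, an L1 layer protein, had 38 and 115 reads in hag1, against 310 and 3122 in Col (1.59, 0.96 to 2.12), and DCR, an acyltransferase of cutin synthesis, had 111 and 177 reads in hag1, against 168 and 1369 in Col (2.17, 1.74 to 2.6). PDF2, a homeobox factor of the L1 layer, had 3 and 103 reads in hag1, against 31 and 153 in Col (-2.37, -5.36 to -1.23).

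Cytokinin genes were lower in 6 of 14 by at least 2-fold and higher in none, none of them past 4-fold (median -0.37). The type-A response regulator ARR8, which damps cytokinin signalling, had 840 and 1235 reads in hag1, against 835 and 524 in Col (-1.41, -1.62 to -1.20), level at 2 weeks and higher in hag1 at 2 days. ARR3 differed by -1.50 and ARR15 by -1.06, while ARR4 and ARR5 differed by -0.07 and -0.30. Of 23 cell division genes 20 stayed within 2-fold (median 0.57). Over all 13458 genes 16.5% differed at least 2-fold in either direction, so most genes stayed within it. PCNA2, the replication clamp, had 410 and 399 reads in hag1, against 274 and 669 in Col (1.14, 0.85 to 1.44). In the list of HAG1 and other histone acetyltransferases, which also holds ADA2A, ADA2B and SGF29A, all 10 genes with 50 reads stayed within 2-fold (median 0.23). HAC2 was one of them, with 43 and 98 reads in hag1, against 0 and 2 in Col, so the gap between genotypes was present at both stages, and with a library at 0 its difference depends on the prior count.

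**Figure D5:**
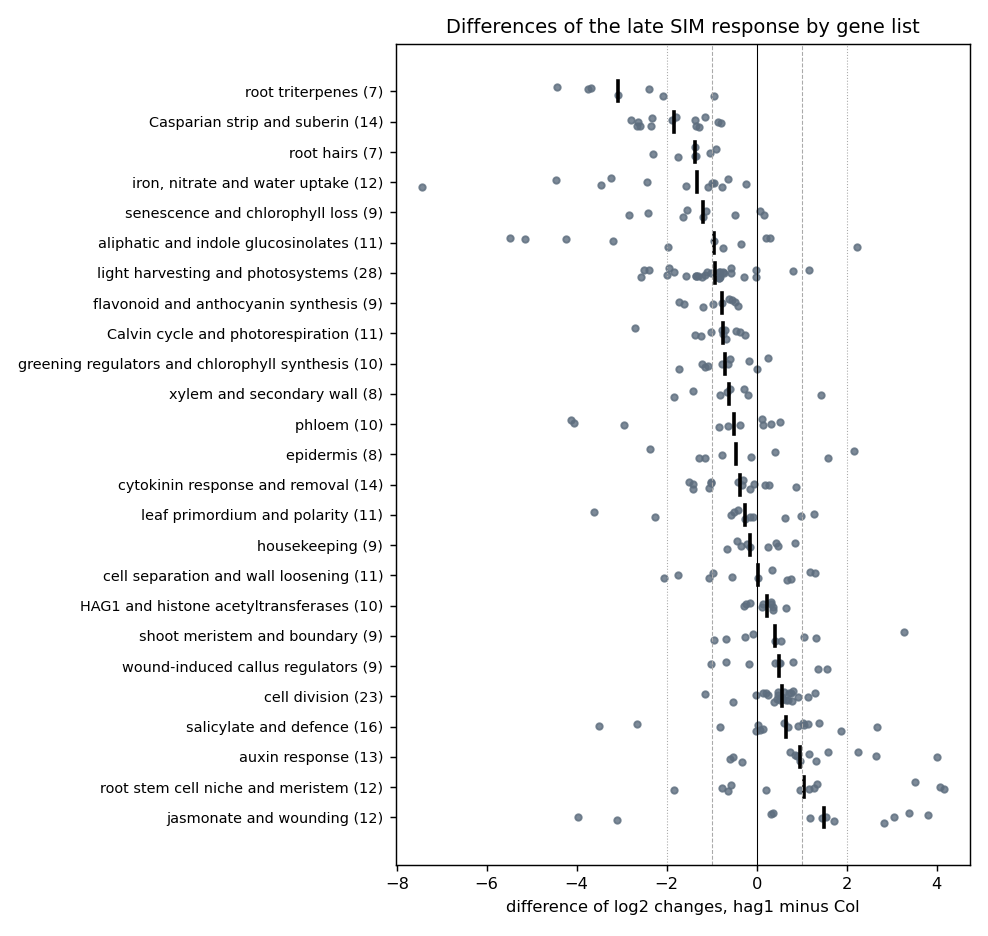
Each point is the difference of log2 changes (hag1 minus Col) of 1 gene with 50 reads, grouped by gene list with the number of genes in brackets; bars are list medians, dashed and dotted lines mark 2-fold and 4-fold. The medians run from -3.08 for root triterpenes at the top to 1.49 for jasmonate genes at the bottom, with housekeeping genes at -0.16. The 3 lists with fewer than 3 such genes are not drawn.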

How the data were processed

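Total RNA of 8 samples was sequenced, per the labels' protocols, from libraries made by BGI. The deposited files give, per the file headers, counts of unique reads per transcript model, and RPKM values that the authors computed from those counts (checked: 0 lines differed by over 1%). Genome TAIR10 is named in the submitters' processing notes; the aligner is not given in the sources used here. Unscaled counts of 30591 models were summed over 25686 loci; 4184 loci list several isoforms, and reads shared by their models may be missing from the unique counts. Depth was 6.96 to 7.54 in units of 1e+06 unique reads.

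Counts were scaled by TMM over the 8 libraries (edgeR 4.0.16, R 4.3.3), with a prior count of 2. Loci with at least 50 reads in 1 of the 4 SIM libraries were kept, and 4-fold and 2-fold differences counted. Intervals are exact conditional ones on the read table, with TMM scaling. The computation of the differences was tested on simulated reads, and the intervals were not. Named genes are the 12 largest differences per direction among loci with at least 100 reads, up to 4 per list past 2-fold, and a few regulators. Genes, 28 lists (483 loci) and rules were chosen with earlier results of these data known. RefSeq TAIR10.1 matched 25463 loci and gave 25462 promoters; its gene starts lay within 50 bases of the files' for 12164 loci. Alternatives were total reads, DESeq2 1.42.0 size factors, TMM over the 4 libraries, prior counts of 0.5 and 8, minima of 1, 10 and 200 reads, multi-isoform loci left out, a 2-fold limit and log2(RPKM + 1).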

Additional observations from a re-analysis of the deposited data

Results flagged for a closer look

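In 10 of the named genes hag1 and Col changed at least 2-fold in opposite directions between 2 days and 2 weeks on SIM, with 1 library each. The difference between genotypes was not tested for any of them. The counting intervals are for the difference and not for the change within 1 genotype. The change in hag1 rested on few reads in several, such as JAZ10 with 9 reads at 2 weeks and 2 at 2 days. The 3 that fell in hag1 and rose in Col were BHLH38 (difference of log2 changes -7.44), AT1G51830, a leucine-rich repeat kinase gene (-5.09), and HORST (-2.59). The other 7 rose in hag1 and fell in Col: CYP79B3 (2.24), JAZ5 (3.06), LOX3 (3.38), JAZ10 (3.81), AT5G24240, a phosphatidylinositol kinase family gene (4.34), MYB2 (4.34) and AT4G18280 (4.74). AT1G51830 had 14 reads at 2 weeks and 59 at 2 days in hag1, against 133 and 15 in Col. AT5G24240 had 16 and 6 reads in hag1, against 26 and 284 in Col. Over all 13458 genes, 26 rose at least 2-fold in hag1 and fell at least 2-fold in Col, and 75 did the reverse.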

How the results depend on the processing

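The excess of lower over higher genes held under every alternative run, at 70.7 to 75.2% of the called genes with the 4-fold limit. Against 544 lower and 192 higher genes, a minimum of 10 reads gave 986 and 345, a minimum of 1 read gave 1154 and 436, a minimum of 200 reads gave 258 and 107, and a 2-fold limit gave 1396 and 831. The other alternatives gave 404 to 605 lower and 164 to 219 higher genes, with the fewest lower under log2(RPKM + 1) and the most under a prior count of 0.5. The read minima and the omission of multi-isoform loci only filter genes, so the difference of a kept gene could not change under them. Of the 114 named genes, 8 moved outside their counting interval under log2(RPKM + 1) and 3 under a prior count of 8. The interval is open for some genes. Of 1088 values of named genes under all alternatives, unchanged ones included, 1076 stayed inside the counting interval of the reported difference. Among named genes with a difference of at least 2-fold, ADPG1 alone changed sign, with 465 reads at 2 weeks and 15 at 2 days in hag1, against 22 and 0 in Col. Its difference was 1.2 with a prior count of 2 and -0.59 with 0.5, so its sign is set by the prior. ESR1 fell under 4-fold with a prior count of 8 (1.92) and on log2(RPKM + 1) (1.78). Under 2-fold, PLT1 (-0.76) was 0.38 on the latter scale, PLT2 (-0.64) was 0.5 there and 0.07 with a prior count of 8, and HAC2 (-0.16) was 1.09 with a prior count of 0.5. No paired analysis was possible because each genotype and stage has 1 library. Genes with under 10 reads in 3 of the 4 libraries have intervals many log2 units wide, and near-identical copies and multi-isoform loci are counted in part.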

Other observations

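Cell separation genes had no common direction, with 3 of 11 at least 2-fold lower and 2 higher (median 0.02). EXPA8, an expansin that loosens walls, had 220 reads at 2 weeks and 587 at 2 days in hag1, against 419 and 301 in Col (-2.06, counting interval -2.39 to -1.76). XTH22, a xyloglucan-modifying enzyme, had 1303 and 1019 reads in hag1, against 840 and 1841 in Col (1.3, 1.14 to 1.47). ADPG1 and ADPG2, polygalacturonases of organ shedding, were read mainly in hag1 at both stages, with 109 and 77 reads of ADPG2 in hag1, against 4 and 1 in Col (-0.54). Among 9 wound-induced regulators 1 was at least 2-fold lower and 2 higher, against 10.4% and 6.17% of all 13458 genes. PLT7, a PLETHORA factor, had 325 and 303 reads in hag1, against 319 and 998 in Col (1.56, 1.27 to 1.86). AGL15, a MADS factor that promotes somatic embryos, had 126 and 270 reads in hag1, against 34 and 409 in Col (2.25, 1.70 to 2.94), and was the only gene of 15 embryo and seed genes with 50 reads.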
